A study of Mus musculus with 10 samples.

Results

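The levels of 8 genes for secreted proteins, grouped here as products of Sertoli cells, were examined in mouse Sertoli cells and testes: transferrin (Trf), ceruloplasmin (Cp), clusterin (Clu), cathepsin L (Ctsl) and the cystatins Cst3, Cst8, Cst9 and Cst12. They were chosen by name, and Cst8 does not meet the name of the group, with 3 to 8 counts in each Sertoli cell culture. All 8 were present among the 17816 genes of the day 7 table and the 20007 genes of the adult table, and all 8 passed the filter on low values in both. The study asked what loss of Rnf20 in Sertoli cells does to spermatogenesis. RNF20 is an E3 ligase that places ubiquitin on histone H2B. At 7 days after birth, Sertoli cells from 2 control samples, labelled WT and described by the study as Rnf20 Flox/Flox, were compared with 2 samples from Amh-Rnf20-/- mice, in which Amh-Cre, active in Sertoli cells through the Amh promoter, deletes the floxed stretch of Rnf20. Their age is that of the sample titles, whereas the labels' growth text speaks of adult tissue. The cells were isolated, plated and passaged before RNA was taken, and the study's methods give 3 individuals in each group where 2 samples were analysed here. In adult testis, taken whole, 3 samples labelled WT were compared with 3 labelled RNF20 conditional knockout, and neither the age of these adults nor a separate description of that experiment is given in the sources used here. All 10 samples were untreated.

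Sertoli cells nurse the germ cells inside the seminiferous tubule and, through the barrier they form, cut the inner tubule off from blood plasma. They therefore supply the carriers that plasma supplies elsewhere: transferrin brings iron to the germ cells, and ceruloplasmin, a copper-carrying ferroxidase, handles copper and oxidises iron. Clusterin is an extracellular chaperone and one of the most abundant products of Sertoli cells in culture. Cathepsin L is a cysteine protease, released as a proenzyme around the sites where germ cells move along the tubule wall, and cystatins are the inhibitors of such proteases. Cystatin C (Cst3) is made by many cell types, testatin (Cst9) was described in pre-Sertoli cells of the fetal testis, cystatin 12 (Cst12) is a testis cystatin of Sertoli cells, and the cystatin-related Cst8 (CRES) is best known from germ cells and from the epididymis.

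Each day 7 sample held 17477268 to 17705347 counts and each adult sample 15431912 to 16574144. Rnf20 itself, in FPKM (fragment counts scaled to transcript length and library size), was at 16.64 and 16.01 in the day 7 controls against 10.25 and 12.58 in the Amh-Rnf20-/- cells (log2 fold change -0.49, SE 0.12, edgeR adjusted p = 0.222). In adult testis it was at 3.32 to 4.89 FPKM in the controls and at 5.76 to 9.85 in the samples labelled knockout, with a log2 fold change of 0.12 (SE 0.27, edgeR adjusted p = 0.688). It was called higher with total-count scaling (0.97, adjusted p = 0.0168) and by limma on FPKM (0.97 and 0.84 with pseudocounts of 0.1 and 1, adjusted p = 0.0152 and 0.0123) and was at -0.08 without a call with median-ratio scaling or DESeq2. It was thus called lower under none of these settings, and those samples are named below only by their label. The level of the whole gene over all cells of the testis is no test of a deletion of part of Rnf20 in Sertoli cells alone. The day 7 cultures expressed the Sertoli cell markers Sox9, Wt1 and Gata4, but also markers of peritubular myoid cells, whose summed level was 1911 to 2030 FPKM in the controls and 3553 to 3604 in the Amh-Rnf20-/- cells. Stroma markers summed to 2152 to 2236 FPKM in these controls, against 3306 to 3920 in the Amh-Rnf20-/- samples, and Leydig cell markers to 149 to 156 against 205 to 301. By edgeR no gene of the 3 lists passed, with 6 of 6 myoid, 6 of 6 stroma and 3 of 4 Leydig cell markers at an unadjusted p under 0.05, whereas DESeq2 called 5, 5 and 2 of them higher. Of all 12880 genes tested, 1997 had such an unadjusted p and DESeq2 called 387 higher. The part of these cells in the day 7 levels was not tested. The first knockout sample stood apart in each table. At day 7 its 10 Sertoli cell markers summed to 175 FPKM, against 396 in the other Amh-Rnf20-/- sample and 520 to 546 in the controls. In adult testis its Cldn11 was at 32.8 FPKM against 227 and 293 in the other 2 samples labelled knockout, and its 8 spermatocyte markers summed to 2.61 FPKM against 303 and 438. The main results that rest on these samples are given with and without them.

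In control Sertoli cells at day 7 the 8 genes spanned a wide range of levels per length. Ctsl (905 and 960.4 FPKM) and Clu (859 and 961) led, and their ranges overlapped. Cst3 followed at 623 and 644 FPKM, then Cst12 at 96.8 and 121. Cp was at 20.1 and 21.6 FPKM and Trf at 10.6 and 17.1, both present but far below clusterin and cathepsin L. The remaining cystatins were barely detected: Cst9 held 12 and 15 counts and Cst8 held 3 and 7 counts in the control cultures, which is 1.68 to 2.07 FPKM and 0.35 to 0.93 FPKM. In the cultured Sertoli cells Cst8 and Cst9 were thus present at the level of a few reads, and their place among secreted Sertoli cell products could not be seen in these cultures.

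**Figure D1:**
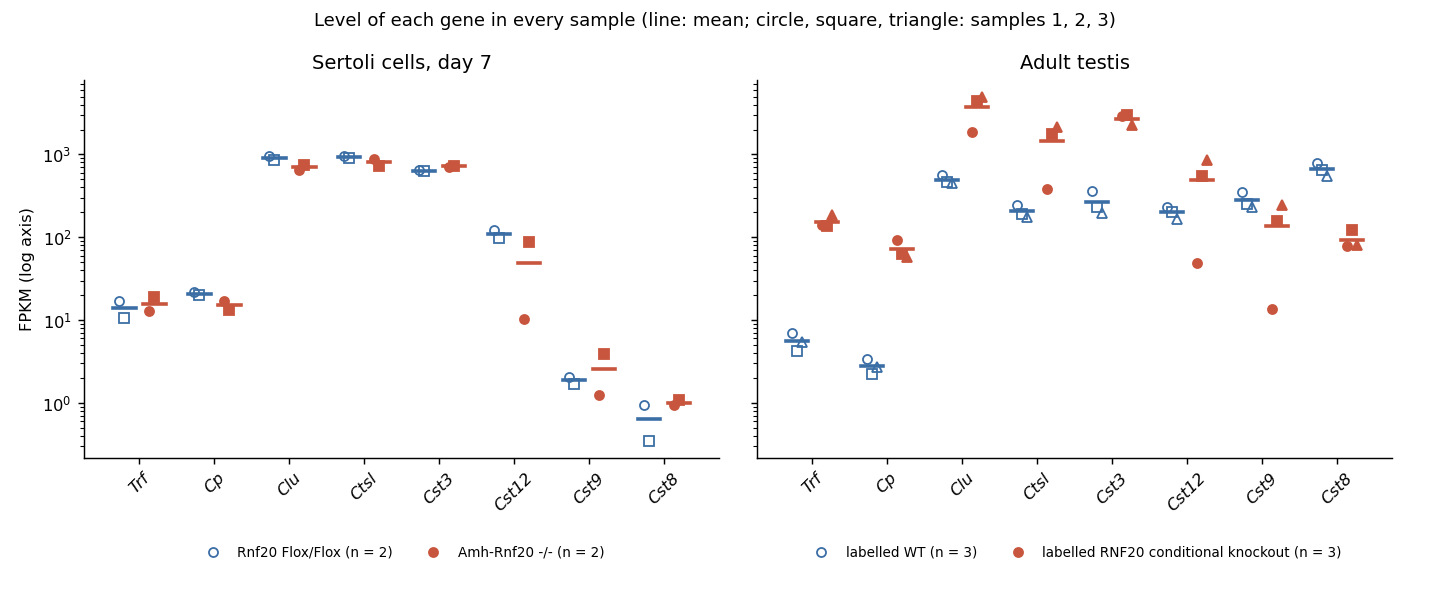
FPKM (log axis) of the 8 genes in every sample of day 7 Sertoli cells (left, n = 2 per group) and adult testis (right, n = 3 per group), open symbols for controls, filled symbols for samples labelled knockout and lines for group means. Trf, Cp, Clu and Cst3 of all 3 adult samples labelled knockout lie above all controls and Cst8 below them, whereas Cst12 and Cst9 spread from 48.5 to 859 and from 13.5 to 242 FPKM within the samples labelled knockout.

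None of the 8 genes passed the test between Amh-Rnf20-/- and Rnf20 Flox/Flox Sertoli cells at day 7 (edgeR quasi-likelihood test, Benjamini-Hochberg adjusted p under 0.05). The background was the same, with 0 of 12880 genes called (0.0%), although 1997 genes had an unadjusted p under 0.05 and DESeq2 called 579 genes (4.5%), none of them among the 8. On scaled counts the groups did not overlap for 5 of the 8 genes, 2 higher and 3 lower in Amh-Rnf20-/-, and this was so for 51.0% of all genes tested. The median log2 fold change of the 8 genes was 0.02, beside 0.00 (-0.00388) over all genes.

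Clu was at 655 and 741 FPKM in the Amh-Rnf20-/- cells, below both controls, and its log2 fold change was -0.34 (SE 0.11, edgeR adjusted p = 0.268). Cst3 was at 711 and 722 FPKM, above both controls, with a log2 fold change of 0.22 (SE 0.074, edgeR adjusted p = 0.297). These were the only members with an unadjusted p under 0.05. Cp was at 17.2 and 13.2 FPKM, again below both controls, with a log2 fold change of -0.36 (SE 0.16, edgeR adjusted p = 0.370). Trf was at 12.7 and 19.0 FPKM and Ctsl at 882 and 729 FPKM. The 2 groups overlapped for Trf, and Ctsl was lower in FPKM without overlap but overlapped once counts were scaled (log2 fold change -0.17, SE 0.13). Cst8 and Cst9 stayed at 7 and 8 counts and at 9 and 28 counts.

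Cst12 was the member with the largest spread at day 7. It was at 10.3 FPKM in the first Amh-Rnf20-/- sample and at 87.9 in the second, against 96.8 and 121 in the controls, so both samples lay below the controls but differed 8.53-fold from each other. The fitted log2 fold change was -1.13 (SE 0.90, edgeR adjusted p = 0.597). The first sample is the one in which the Sertoli cell markers were lowest, with Sox9 at 10.2 FPKM against 25.7 in the second and Cldn11 at 14.0 against 150.4. The part of this difference in the level of Cst12 was not tested. Without the first sample the log2 fold change of Cst12 was -0.30 (edgeR adjusted p = 0.187), and Clu (-0.27), Ctsl (-0.32), Cp (-0.57) and Cst3 (0.21) then passed the test, 4 of 8 genes where 21.4% of all genes passed. Without the second sample, Cst12 (-3.33), Clu (-0.43) and Cst3 (0.22) passed it, 3 of 8 genes where 39.9% of all genes passed. Without the second sample the log2 fold change of Cp was -0.17 and that of Ctsl -0.03, smaller in size than with both. In both fits the Amh-Rnf20-/- group is a single sample that is assumed to vary as the controls do.

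In adult testis the secreted carriers, clusterin, cathepsin L and cystatin C were all higher in the samples labelled knockout, and Cst8 was lower. Of the 8 genes, 6 passed the test (edgeR, adjusted p under 0.05), 5 higher and 1 lower. This stands against a background of 81.5% of the 15919 genes tested, 40.9% higher and 40.6% lower, so a call by itself sets no member apart. The groups did not overlap on scaled counts for 6 of the 8, beside 85.5% of all genes. The median log2 fold change of the members was 1.99, beside 0.01 over all genes. Scaling by total counts alone moved the median of all genes to 0.87 and that by median ratios to -0.19, and the calls over all genes became 8615 higher and 4775 lower with total counts, where they were 6503 and 6466. No member changed its direction with the scaling.

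The iron carrier Trf rose from 7.06, 4.27 and 5.42 FPKM in the controls to 141, 137 and 185 FPKM in the samples labelled knockout. All 3 lay far above the controls, the means differed 27.7-fold (5.58 ± 1.40 and 155 ± 26.6, SD, n = 3), and the log2 fold change relative to the bulk of genes was 3.93 (SE 0.23, edgeR adjusted p = 3.89e-05). The ferroxidase Cp rose alongside it, from 3.38, 2.20 and 2.70 FPKM to 93.7, 63.6 and 58.2. Its groups were equally far apart, at 26.0-fold between means and a log2 fold change of 3.88 (SE 0.30, edgeR adjusted p = 7.82e-05). Both metal carriers were the least abundant members in control testis and had the largest fold changes of the 8 with TMM scaling. With median-ratio scaling the change of Cst8 (-3.86) exceeded those of Trf (3.74) and Cp (3.69) in size. The order of Trf and Cp among the 3 samples was not the same, Trf being highest in the third sample and Cp in the first.

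Clu, the chaperone, went from 564, 470.3 and 449.6 FPKM in the controls to 1857, 4411 and 4953 FPKM. The first sample labelled knockout was well below the other 2 but still above every control, and the log2 fold change was 2.04 (SE 0.41, edgeR adjusted p = 0.00393). Ctsl, the protease, went from 249, 189 and 178 FPKM to 386, 1769 and 2168. Here the first sample was close to the controls and, on scaled counts, fell inside their range (432 as scaled CPM, controls 334 to 464). The log2 fold change of Ctsl was 1.93 (SE 0.60, edgeR adjusted p = 0.0233), and the call was lost when any sample other than the first labelled knockout was left out (adjusted p 0.0569 to 0.0802) and with the replicate number as a block (0.106). Cst3, the inhibitor, was at 363, 232 and 196 FPKM in the controls, rising to 2881, 2957 and 2237 FPKM in the samples labelled knockout, a 10.2-fold difference between means. It was high in all 3 (log2 fold change 2.50, SE 0.31, edgeR adjusted p = 0.000487).

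Cst12 and Cst9 differed more among the samples labelled knockout than between the groups. Cst12 was at 232, 203 and 168 FPKM in the controls, but 48.5, 548 and 859 in the samples labelled knockout, 1 below all controls and 2 above them, which is a 17.7-fold spread within a group (log2 fold change 0.37, SE 0.85, edgeR adjusted p = 0.699). Cst9 was at 356, 253 and 233 FPKM and at 13.5, 157 and 242, with the third sample inside the control range in FPKM (log2 fold change -1.93, SE 0.88, edgeR adjusted p = 0.0828). On scaled counts all of them lay below the controls (4.55, 49.7 and 74.1 as scaled CPM, controls 134 to 201). In both genes the low value belonged to the first sample labelled knockout, in which Sox9 was at 1.20 FPKM (9.86 and 12.7 in the other 2), Fshr at 0.30 (4.76 and 8.70) and Dhh at 2.21 (24.3 and 30.6). Gata4 did not separate it, at 53.5 FPKM beside 57.7 and 54.9. Whether these differences bear on Cst12 and Cst9 was not tested.

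Cst8 was the most abundant of the 8 genes in control testis, at 792, 651 and 554 FPKM, and its range overlapped that of Clu. It fell to 77.7, 122 and 81.6 FPKM in the samples labelled knockout, 7.09-fold below the control mean (log2 fold change -3.67, SE 0.27, edgeR adjusted p = 6.78e-05). All 3 lay below all controls. Spermatid markers moved with it, 9 of 9 called lower, their sum falling from between 124500 and 193100 FPKM to between 4.09 and 92.6. Spermatocyte markers were lower too, 4 of 8 called (8 without the first sample labelled knockout or with DESeq2, 7 with median-ratio and 3 with total-count scaling), their sum falling from between 4423 and 4584 FPKM to between 2.61 and 438. Of all 15919 genes, 6466 (40.6%) were called lower in the main fit. This was 6550 without that sample, 7035 with DESeq2, 6928 with median-ratio and 4775 with total-count scaling. The counts of 4 and 3 spermatocyte markers lie near the shares of all genes. The part of these germ cells in the level of Cst8 was not tested. Epididymal epithelium markers, 6 of 7 present in the table, summed to 2.78 to 4.50 FPKM in the controls and 0.21 to 0.55 in the samples labelled knockout. Nearly all of the control sum was Rnase10 (2.67 to 4.31 FPKM), and every other marker of the list was at 0.26 or less in each sample.

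**Figure D2:**
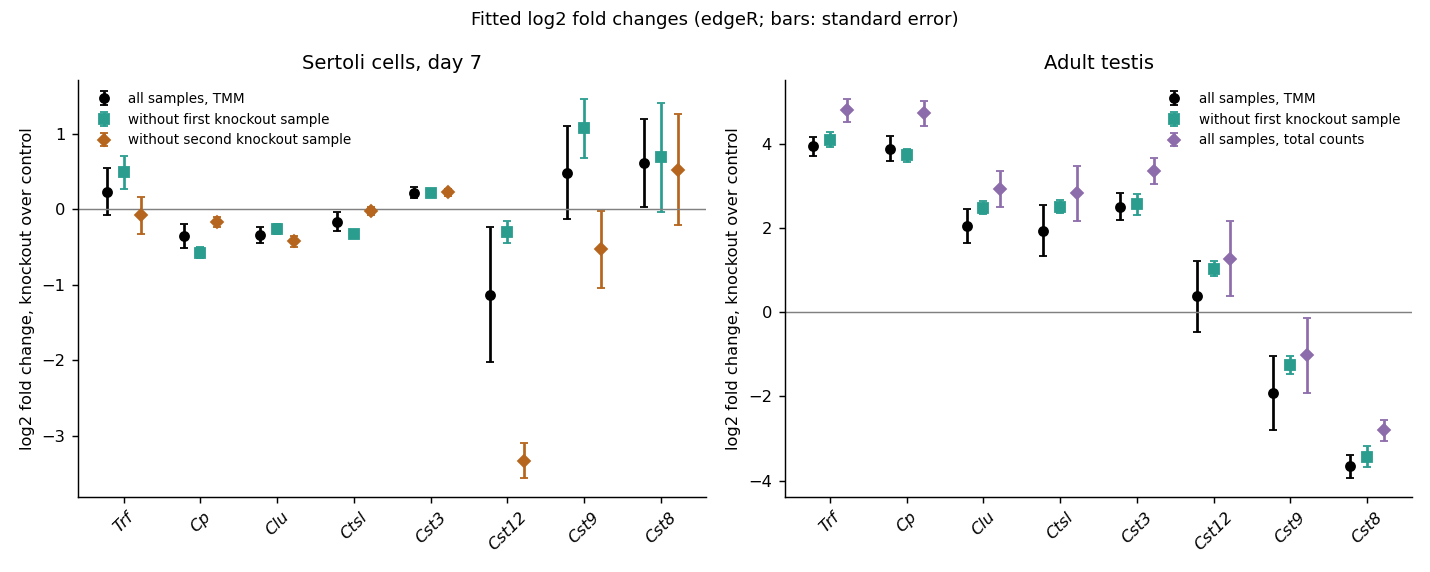
Log2 fold change with its standard error (edgeR) of each gene in day 7 Sertoli cells (left) and adult testis (right), with all samples, with knockout samples left out and, for adult testis, with total-count scaling. Leaving out the first sample labelled knockout moved Cst12 in adult testis from 0.37 to 1.03 and Cst9 from -1.93 to -1.26, and Trf, Cp, Cst3 and Cst8 kept their sign and stayed close to the value with all samples.

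Without the first sample labelled knockout all 8 genes passed the test in adult testis, as did 86.4% of all genes. Ctsl was then at 2.50 (edgeR adjusted p = 9.87e-07), Clu at 2.48 (5.19e-07), Cst12 at 1.03 (0.000613) and Cst9 at -1.26 (0.000433) on the log2 scale. Cst12 without that sample was higher and Cst9 lower than in the controls. With total counts in place of TMM scaling and all 6 samples, Cst9 was at -1.03 (adjusted p = 0.308) and Cst12 at 1.27 (0.218), both short of a call, and Cst8 at -2.81 remained lower.

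Other cell types of the testis moved with these results. In adult testis 9 of 9 macrophage markers were called higher, their sum going from 80.5 to 92.9 FPKM in the controls to 2012 to 3161, 6 of 6 Leydig cell markers from 3997 to 5602 up to 63070 to 87430, and 6 of 6 stroma markers from 40.5 to 53.4 up to 1303 to 3390. Endothelium markers were called higher in 5 of 5, from 2.21 to 2.32 FPKM up to 28.4 to 44.8. Each of these lists stands beside 40.9% of all genes called higher. Of 6 peritubular myoid markers, 4 were called higher and 1, Actg2 (-7.73), lower, and of 7 spermatogonia markers tested, 2 were higher and 3 lower. The macrophage marker Cd163 (0.09 to 0.26 FPKM in the controls), the endothelium marker Kdr (0.15 to 0.40) and the spermatogonia marker Zbtb16 (0.20 to 0.31) were among those called higher. They passed the filter on low values only through the samples labelled knockout, so their calls are description only. None of the lists had a gene at 0 in every sample. Of the 10 Sertoli cell markers, 4 were called higher and 1, Rhox5, lower, a share of higher calls near that of all genes in the main fit. With total counts 7 were called higher, beside 8615 of all 15919 genes. Without the first sample labelled knockout 9 were, beside 7207. The sum of the 10 markers went from 140.3 to 177 FPKM up to 327 to 730. By mean log2 level the first sample labelled knockout (2.42) lay inside the controls (2.36 to 2.77) and the other 2 above them (4.37 and 4.82). The sum of the first was mostly Amhr2 (214 FPKM, beside 266 and 245 in the other 2) and Gata4 (53.5, beside 57.7 and 54.9). These markers thus differed little among the samples labelled knockout, and the part of other cell types in their levels was not tested. The part of these cell types in the levels of Trf, Cp, Clu, Ctsl and Cst3 was not tested. Cathepsin L and cystatin C are also known products of macrophages. In whole testis, fewer cells of a type and less RNA per cell cannot be told apart.

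To set the members against other Sertoli cell transcripts, the level of each was taken relative to the mean of the Sertoli cell markers of the same sample. This used a log2(FPKM + 0.1) scale, with 10 markers in adult testis and 8 at day 7. The mean of the markers does not measure the number of Sertoli cells. With 3 samples against 3 the exact two-sided permutation test cannot go below p = 0.1, and 2 against 2 cannot go below 0.33, so none of these differences can pass a threshold of 0.05. In adult testis, Trf was 3.45 higher relative to the markers in the samples labelled knockout, Cp 3.31, Cst3 2.06, Clu 1.47 and Ctsl 1.16, each without overlap between the groups and at the smallest exact p. Cst8 differed by -4.17 and Cst9 by -3.11, both without overlap. Cst12 differed by -0.82, with overlap (exact p = 0.2). Without the first sample labelled knockout Trf was at 2.79, Cp at 2.38, Cst3 at 1.29, Clu at 1.20, Ctsl at 1.22, Cst8 at -4.77, Cst9 at -2.55 and Cst12 at -0.27.

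Among the adult samples labelled knockout, Ctsl followed this list of markers most closely of the 8. Relative to them it was at 5.19, 5.21 and 4.98 in the controls, compared with 6.17, 6.42 and 6.27 in the samples labelled knockout, so that the first of these, 5.62-fold below the third in FPKM, was level with the other 2 (SD 0.129, where that of Cst3 was 1.41 and that of Cp 1.64). With Sox9, Wt1 and Gata4 alone as the markers the difference of Ctsl was -0.06 in place of 1.16, that of Clu 0.25 in place of 1.47, that of Cst3 0.84 in place of 2.06 and that of Cst12 -2.04 in place of -0.82. Trf (2.23), Cp (2.09), Cst8 (-5.39) and Cst9 (-4.33) kept their direction with these 3 markers. The spread within the group was not recomputed with these 3 markers, so the closeness of Ctsl holds for the full list only. With the full list Cst12 also came closer together, at 3.18, 4.73 and 4.93 beside 5.09, 5.31 and 4.90 in the controls, with the first sample still apart. Relative to the markers Cp was at 4.13 in the first sample and at 1.63 and 1.05 in the other 2, and Trf at 4.72 beside 2.74 and 2.72. Clu (8.44), Cst3 (9.07) and Cst8 (3.86) were also highest in that sample, whose marker mean, subtracted here, was the lowest of the 3. At day 7 the relative levels of Trf, Clu, Ctsl, Cst3, Cst8 and Cst9 were higher in both Amh-Rnf20-/- samples than in both controls (differences 0.74 to 1.81). Unlike in adult testis, Ctsl did not stay level, at 6.59 and 5.01 in the Amh-Rnf20-/- samples (SD 1.12, where that of Cst9 was 0.197). The markers themselves were lower there in 8 of the 9 that were tested. None of these passed by edgeR (3 at an unadjusted p under 0.05), DESeq2 called 2 lower, and 6 and 8 were called lower without the first and without the second Amh-Rnf20-/- sample, in fits that called 21.4% and 39.9% of all genes. Over all 12880 genes DESeq2 called 192 lower. With Sox9, Wt1 and Gata4 alone as the markers the relative difference was 0.35 for Clu and 0.51 for Ctsl, in place of 0.74 and 0.90, that of Cst12 was -1.11 and that of Cp 0.26. Without the first sample the relative difference was smaller for Clu (0.18), Ctsl (0.11), Cst3 (0.66), Trf (0.96) and Cst8 (1.25), and for Cst9 it was 1.5 in place of 1.36. Without the second it was larger for Clu (1.3), Ctsl (1.69), Cst3 (1.94), Trf (1.69) and Cst8 (2.37), and smaller for Cst9 (1.22). With all day 7 samples Cst12 (-0.72) and Cp (0.65) overlapped, and the second Amh-Rnf20-/- sample had Cst12 at 1.96 beside 1.88 and 1.71 in the controls. Without the first sample, Cst12 was at 0.17 and Cp at -0.19, the opposite sign in both.

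**Figure D3:**
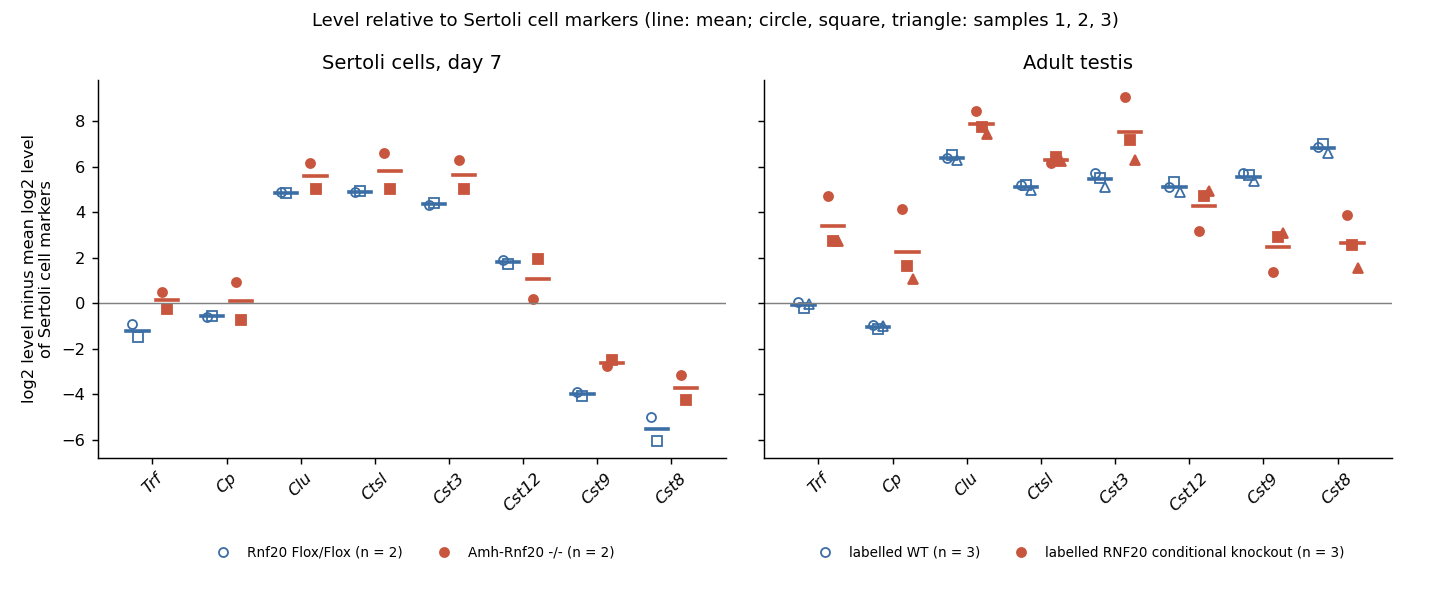
Log2(FPKM + 0.1) of each gene minus the mean of the Sertoli cell markers in the same sample, for day 7 Sertoli cells (left, n = 2 per group) and adult testis (right, n = 3 per group), lines marking group means. In adult testis, with the full list of markers, Ctsl has the narrowest spread of the 8 among the samples labelled knockout (SD 0.129). The first of these samples (filled circles) is highest for Trf, Cp, Clu, Cst3 and Cst8 and lowest for Cst9, Cst12 and Ctsl.

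The protease and its inhibitor were compared within each sample as log2(FPKM + 0.1) of Ctsl minus that of Cst3. At day 7 this was 0.575 and 0.539 for the controls, against 0.311 and 0.013 in the Amh-Rnf20-/- samples, a difference of -0.40 (exact permutation p = 0.33), -0.25 with the second Amh-Rnf20-/- sample left out and -0.54 with the first left out, with Ctsl the more abundant transcript in all 4. In adult testis it was -0.54, -0.30 and -0.14 in the controls, whereas the values were -2.90, -0.74 and -0.05 in the samples labelled knockout, a difference of -0.90 (exact permutation p = 0.5). Cst3 exceeded Ctsl in all 6 testes, and the groups overlapped, with the first sample labelled knockout, low in Ctsl and high in Cst3, farthest from the others. Without that sample the difference was -0.07, and without the second or the third it was -1.15 or -1.49.

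The 4 cystatin members lie in a cluster of 9 cystatin genes within 125.2 kb of chromosome 2, with Cst12 at chr2:148789365-148793432, Cst8 at chr2:148798839-148805596 and Cst9 at chr2:148835147-148838737 on the plus strand and Cst3 at chr2:148871722-148875512 on the minus strand (GRCm38.p6). Cst12, Cst9 and Cst3 have 3 exons each in the annotation and Cst8 has 5. The other members lie on other chromosomes, Trf at chr9:103208876-103230286 (18 exons), Cp at chr3:19956933-20009750 (19 exons), Clu at chr14:65968483-65981548 (9 exons) and Ctsl at chr13:64361890-64370772 (9 exons).

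Genes of the cluster differed in both directions in adult testis. Cstl1, at its start, was at 329 to 489 FPKM in the controls and at 0.18 to 0.57 in the samples labelled knockout, and Cst13, between Cst8 and Cst9, was at 237 to 319 and at 0.37 to 0.85. Cst11 was at 0.00 to 0.86 FPKM in the controls, but 1.99, 29.5 and 34.0 in the samples labelled knockout (edgeR adjusted p = 0.0133), with the first sample again the lowest. It passed the filter on low values only through the samples labelled knockout. Cst3, at the far end, rose in all 3. All 86 counts of these genes were whole numbers, and how the counting treated reads shared by paralogs is not given in the sources used here. Cstdc1 and Cstdc2, which were looked at for their position after the data were seen, completed the cluster. Cstdc2 was at 104, 1.98 and 1.97 FPKM in the controls, so its own controls differed more than its groups.

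**Figure D4:**
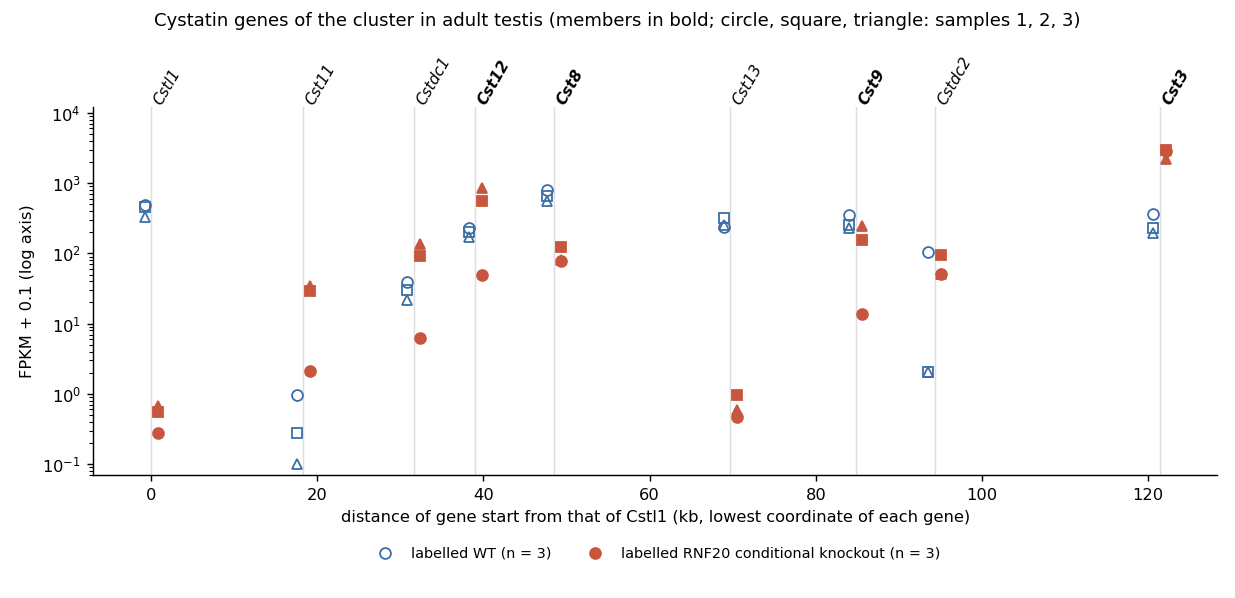
FPKM + 0.1 (log axis) of the 9 cystatin genes in adult testis against the distance of each gene from Cstl1 in kb, open symbols for the 3 controls and filled symbols for the 3 samples labelled knockout. Cstl1 and Cst13 are below 1 FPKM in every sample labelled knockout, Cst3 is at 2237 or more in each, and every gene except Cst3 and Cstdc2 has its lowest filled symbol in the first of these samples (circles).

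Cstdc1, the gene next to Cst12, had the pattern most like that of Cst12 among 12377 genes compared over the 10 samples. It was at 38.7, 29.6 and 21.3 FPKM in the adult controls and at 6.06, 90.8 and 136 in the samples labelled knockout, so it was low in the first and high in the other 2 as Cst12 was. Cst9 had the same order of these 3 samples but did not exceed the controls in the other 2, and Cst8 was low in all 3. The 250 bases before the start of these 4 genes are shown for that reason, from the RefSeq promoter table on GRCm38.p6, 5′ to 3′ on the gene's strand, with each E-box (CANNTG, the same on both strands, a motif that basic helix-loop-helix factors bind) in capitals.
Cst12, chr2:148789115-148789364, plus strand: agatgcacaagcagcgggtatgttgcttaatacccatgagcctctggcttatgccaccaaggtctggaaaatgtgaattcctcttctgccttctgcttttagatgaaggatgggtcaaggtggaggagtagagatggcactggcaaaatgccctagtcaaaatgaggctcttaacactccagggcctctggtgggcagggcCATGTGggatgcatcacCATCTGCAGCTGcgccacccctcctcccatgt
Cstdc1, chr2:148781759-148782008, plus strand: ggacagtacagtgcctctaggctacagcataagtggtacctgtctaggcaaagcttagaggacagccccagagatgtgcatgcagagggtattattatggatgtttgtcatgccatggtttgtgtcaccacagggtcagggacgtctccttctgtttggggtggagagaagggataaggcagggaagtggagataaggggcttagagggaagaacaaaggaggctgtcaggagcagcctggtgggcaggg
Cst8, chr2:148798589-148798838, plus strand: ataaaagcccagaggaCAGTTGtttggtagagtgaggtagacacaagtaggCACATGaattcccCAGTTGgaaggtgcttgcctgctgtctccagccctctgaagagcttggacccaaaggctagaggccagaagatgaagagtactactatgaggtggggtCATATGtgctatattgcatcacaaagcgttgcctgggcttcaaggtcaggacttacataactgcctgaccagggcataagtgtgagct
Cst9, chr2:148834897-148835146, plus strand: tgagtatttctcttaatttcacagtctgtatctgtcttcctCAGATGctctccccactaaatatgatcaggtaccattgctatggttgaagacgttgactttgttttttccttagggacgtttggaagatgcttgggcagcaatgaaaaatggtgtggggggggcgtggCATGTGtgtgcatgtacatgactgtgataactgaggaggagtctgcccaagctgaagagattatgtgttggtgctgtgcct
Cst12 held 3 E-boxes, all within 49 bases of the start and 2 of them end to end, whereas Cstdc1 held none. Cst8 held 4 E-boxes and Cst9 held 2. GATAA (either strand), the core that GATA factors bind, was found 2 times before Cstdc1, 1 time before Cst9 and not before Cst12 or Cst8. Neither motif is rare, an E-box being in 66.2% and GATAA in 22.6% of 32851 promoter windows of this length. The genes with the like pattern, Cst12 and Cstdc1, thus shared neither of these motifs in these windows.

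Genes with the pattern most like each member were named by the root mean square difference of log2(FPKM + 0.1), centred within each table, over the 10 samples and 12377 other genes. These are descriptions, and genes of one table share its libraries. For Cst12 they were Cstdc1 (0.175), Esyt3 (0.180) and Gpr37 (0.302). For Ctsl they were Psat1 (0.087), Sesn2 (0.115) and Sbk1 (0.137), and for Clu they were Flrt1 (0.094), Septin6 (0.110) and Slc20a2 (0.122). For Cst3 they were Pts (0.093), Gcat (0.104) and Ssr4 (0.116). Cp was closest to Tmc6 (0.147), Klhdc7a (0.149) and Maf (0.162), and Trf to C1qtnf1 (0.261), Pkia (0.273) and Lsp1 (0.277). For Cst8 they were Septin3 (0.315), Zc2hc1c (0.326) and Pcbp3 (0.337), and for Cst9 Stmn1 (0.296) and Gm4779 (0.33). Among the members themselves the nearest pairs were Clu with Ctsl (0.314) and Trf with Cp (0.410), and the farthest was Trf with Cst8 (2.97).

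The partners of the metal carriers were read from the same fits. Of 15 genes of iron uptake, storage and export tested in adult testis, 10 were called higher and 3 lower, where 81.5% of all genes were called, with a median log2 fold change of 2.09 where that of all genes was 0.01. The transferrin receptor Tfrc went from a mean of 3.24 to 10.97 FPKM (log2 fold change 0.89, SE 0.25, edgeR adjusted p = 0.0151), a smaller difference than that of its ligand. The endosomal iron transporter Slc11a2 rose by 1.67, the iron exporter Slc40a1 by 3.75, the ferritin heavy chain Fth1 by 2.47 and Aco1, which senses cytosolic iron, by 3.27. Meltf (-4.12) and the mitochondrial ferritin Ftmt (-6.25) were lower, and Ireb2 (-0.53) was lower with TMM scaling, where its mean FPKM was 16.9 and 17.6. With total counts Ireb2 was not called, and 11 genes of the list were higher and 2 lower. Of 7 copper genes, 6 were called higher and 1, Atp7b (-3.48), lower, and Heph, a membrane-bound relative of ceruloplasmin, rose by 4.09. Heph (0.14 to 0.21 FPKM in the controls) and Slc40a1 (0.23 to 0.49) passed the filter on low values only through the samples labelled knockout. Atp7b passed it only through the controls, so the calls of these genes are description only. At day 7 none of 11 iron genes and none of 6 copper genes was called by edgeR (4 and 1 at an unadjusted p under 0.05). DESeq2 called 1 iron gene higher and 1 lower and no copper gene, where it called 4.5% of all genes. The smallest p-values of the iron genes belonged to the ferrireductase Steap3 (log2 fold change 0.77, edgeR adjusted p = 0.141) and the metal transporter Slc39a14 (-0.58, 0.181).

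For clusterin, 2 receptors were tested in adult testis. The microglial and macrophage receptor Trem2 rose by 4.11, whereas Lrp8 was at 0.14 FPKM in the first sample labelled knockout and at 10.2 and 10.3 in the other 2 (log2 fold change -0.89, SE 1.13, edgeR adjusted p = 0.487). Lrp2, the endocytic receptor for clusterin, did not pass the filter on low values in adult testis. At day 7 none of 4 receptors was called by edgeR (1 at an unadjusted p under 0.05). DESeq2 called 1 lower, where it called 192 of all 12880 genes lower. The lowest edgeR p was that of Vldlr (log2 fold change -0.79, edgeR adjusted p = 0.119).

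All 13 cathepsins and legumain other than Ctsl that were tested in adult testis were called higher, as were 40.9% of all genes, with a median log2 fold change of 3.19, above that of Ctsl at 1.93. Among them were the lysosomal Ctsb (3.47) and Ctsd (3.08), Ctsk (3.04) and Ctss (4.25), a protease of antigen-presenting cells. Ctse (0.13 to 0.36 FPKM in the controls) and Ctsw (0.05 to 0.31) passed the filter on low values only through the samples labelled knockout. Their calls are description only. All 13 were also called without the first sample labelled knockout, and the summed level of the list in that sample was 2520 FPKM beside 2141 and 1953. Of the 13, 10 were highest in that sample among the samples labelled knockout and 2 were lowest there, Lgmn (151.2 FPKM beside 199.8 and 201.8) and Ctse (8.68 beside 16.1 and 17.6), as Ctsl was. At day 7 none of 12 was called by edgeR (2 at an unadjusted p under 0.05) or by DESeq2. Ctsw had the smallest p (log2 fold change -1.45, edgeR adjusted p = 0.161).

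Of 8 other cystatins tested in adult testis, 5 were called higher and 2, Cst13 and Cstl1, lower, beside 40.9% and 40.6% of all genes. The intracellular inhibitor Cstb rose by 2.64, from a mean of 53.6 to 608 FPKM. Cst6 was at low levels, 0.03 to 0.10 FPKM in the controls and 0.52 to 1.02 in the samples labelled knockout. Cst6, Cst11 and Ahsg (0.07 to 0.35 FPKM in the controls) passed the filter on low values only through these samples, so their calls as higher are description only. Of 15 other secreted products of Sertoli cells, 13 were called higher and none lower, with a median of 3.23. Among the 13, Plau (0.15 to 0.41 FPKM in the controls) passed the filter on low values only through the samples labelled knockout, so its call is description only. Prosaposin (Psap) rose by 2.51 and the complement inhibitor Serping1 by 4.28. The β-defensin Defb36 was at 29.0, 534 and 664 FPKM in the samples labelled knockout and, at day 7, at 7.19 and 54.3 FPKM in the Amh-Rnf20-/- samples against 111 and 118 in the controls. As for Cst12, the first knockout sample was the lowest of its group in both tables. At day 7 none of 4 other cystatins and none of 16 other secreted products was called by edgeR (0 and 8 at an unadjusted p under 0.05), with Serping1 (log2 fold change 1.41, edgeR adjusted p = 0.119) and A2m (-1.69, 0.163) having the smallest p in each direction. DESeq2 called 5 of the 16 higher and 1 lower at day 7, and no other cystatin. Over all 12880 genes it called 387 higher and 192 lower, and 1997 had an unadjusted edgeR p under 0.05. With the first Amh-Rnf20-/- sample left out 9 of the 16 were called higher and 2 lower, and with the second left out 12 and 3, where 21.4% and 39.9% of all genes were called. In the same fits the iron genes called were 3 higher and 4 lower, then 6 and 1, the copper genes 1 and 1, then 2 and 0, the cathepsins 2 and 1, then 3 and 3, and the clusterin receptors 0 and 2, then 2 and 2.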

How the data were processed

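RNA-seq of day 7 Sertoli cells and adult testis was analysed. Per the labels and the study's methods, RNA was enriched with oligo(dT), and the authors mapped reads to GRCm38.p6 with HISAT, aligned them to reference genes with Bowtie2 and quantified them with RSEM. Their versions, and whether strand was used, are not given in the sources used here, and that the adult table was made the same way is taken from its column names. The authors deposited estimated counts, which are not normalized, FPKM, in which counts are divided by transcript length and depth, and TPM, which no test used. The adult table also has 20 empty columns. Each table was analysed within itself.

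Counts were rounded (10.7% to 13.2% of values were not whole, but all 80 of the members were) and tested with edgeR 4.0.16 (quasi-likelihood, TMM, Benjamini-Hochberg over all genes) where FPKM reached 0.5 in at least 2 samples at day 7 or 3 in adult testis, which left 12880 genes at day 7 and 15919 in the adult table. A gene under 0.5 FPKM in all samples of a group could enter the test only through the other group. A gene was called at an adjusted p under 0.05. Standard errors were obtained by dividing each log2 fold change by the square root of its F statistic. Levels relative to Sertoli cell markers with a mean FPKM of at least 1 used log2(FPKM + 0.1) and an exact two-sided permutation test, 8 members in each table. Such a scale understates the change of low genes. DESeq2 1.42.0, limma 3.58.1, other scalings, filters and left-out samples were alternatives. The fit was tested on simulated data in which few genes were changed. At day 7 it recovered 56.1%, 95.5% and 95.5% of genes changed by 1, 2 and 3 on the log2 scale. With the adult settings it recovered 7.58%, 62.7% and 71.6%, so smaller changes were often missed. Unchanged genes called were 11 and 6. The software was Python 3.11.15 with scipy 1.17.1, pandas 2.3.3, numpy 2.4.6 and matplotlib 3.10.9, and R 4.3.3. The study's methods give 3 individuals per day 7 group. For the adult samples, whether they came from separate animals is not given in the sources used here, so p-values there measure the spread between these samples, which may be technical.

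The members, gene lists and markers were chosen with earlier results of these data known. The text names the 8 members, Rnf20, fixed partners (Tfrc, Slc11a2, Slc40a1, Fth1, Heph, Lrp2, Lrp8, Ctsb, Ctsd, Ctsk, Ctss, Cst6, Cst11, Cst13, Cstb, Psap), the gene with the smallest p in each direction in each companion list and table, and the 3 genes with the nearest pattern, of which 1 is not reported here. Cstdc1, Cstdc2, Cstl1, Defb36, Ftmt, Ireb2 and the markers named for the first knockout samples were chosen after their values were seen. So were the other genes named for passing the filter on low values only through the samples labelled knockout. Coordinates and promoters come from RefSeq and exon numbers from GENCODE M21, both on GRCm38.p6. The promoter table held 6 of the 8 members.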

Additional observations from a re-analysis of the deposited data

Results flagged for a closer look

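For 3 of the 8 genes every knockout sample lay on one side of the controls at day 7 and on the other side in adult testis, on scaled counts, as was so for 18.3% of the 12378 genes tested in both tables. The difference between the 2 tables was not tested, since they were made separately, from cultured cells and from whole testis. Clu was lower in both Amh-Rnf20-/- samples and higher in all 3 adult samples labelled knockout, and its log2 fold change in adult testis exceeded that at day 7 by 2.38. Cp moved in the same way, with a difference of 4.24. Cst8 was higher at day 7 and lower in adult testis (difference -4.27), but its day 7 order rests on 3 to 8 counts per sample and held on scaled counts only, the groups overlapping in FPKM. Groups of 2 and 3 samples were too small for a test of single outlying samples.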

How the results depend on the processing

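Fold changes and relative levels of the members kept their direction and their side of the threshold in 321 of 347 recomputed values, where relative levels could not pass a threshold and kept only a direction. Part of this was fixed beforehand, since most day 7 settings called no gene and the study's thresholds reuse the main fold changes. The relative levels of a table also share the same marker mean, so these values are not independent checks. Depth limits Cst8 and Cst9 at day 7, which rest on 3 to 28 counts. In adult testis Trf (3.74 to 4.79 with all samples), Cp, Clu, Cst3 and Cst8 kept their calls at an adjusted p under 0.05. At the study's thresholds (adjusted p under 0.001 and an absolute log2 fold change over 1) 7432 genes passed in adult testis, without Clu and Ctsl among them. At day 7 the genes called were 579 with DESeq2 and 0 to 5136 when a sample was left out, and the members called 0 to 4. A lone sample is then assumed to vary like the other group. Without a sample, the log2 fold change at day 7 ran from -0.0819 to 0.619 for Trf and from -0.53 to 1.07 for Cst9, and in adult testis from -0.15 to 1.03 for Cst12. Relative to Sertoli cell markers at day 7, Cst12 ran from -1.61 to 0.169 and Cp from -0.187 to 1.49, the upper value of Cst12 and the lower one of Cp being those without the first Amh-Rnf20-/- sample. Ctsl relative to Sox9, Wt1 and Gata4 in adult testis was -0.061. The cause was not tested. In adult testis DESeq2 also called Cst9 (-2.14, adjusted p = 0.0162).

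With the replicate number as a block, 12209 genes and 5 members were called in adult testis and 0 at day 7. Ctsl was then at 1.69 (adjusted p = 0.106) and Cst12 at -0.193, and the block changed no other member's call. The numbers were not taken to pair the samples, since deviations of same-numbered samples correlated by 0.0358 at day 7 and by 0.0107 to 0.0247 in adult testis, each adult sample correlating best with its own number.

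Counts of the companion lists under other scalings, DESeq2 and without the first knockout sample were added after seeing the data. In adult testis without that sample 15 of 15 other secreted products and 9 of 10 Sertoli cell markers were called higher, beside 7207 of all 15919 genes. The 15 include Plau, whose call is description only.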
